A study of Mus musculus with 6 samples.

Results

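The regions described here are the 5-methylcytosine (5mC) peaks that appeared in the iPS list and in neither earlier list of a mouse reprogramming series. They were selected on the deposited 5mC peak positions. A peak of the iPS 5mC list was kept if it overlapped by 1 bp or more no 5mC peak of fibroblasts and none of day 3. Of 61171 iPS 5mC peaks, 10151 met this rule, which is 16.6% of the list. They are called iPS-only 5mC peaks below, and the remaining 51020 are called the other iPS 5mC peaks. "Only" refers to these 3 lists, so a region below the peak caller's threshold at an earlier stage counts as absent there.

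Genomic DNA was immunoprecipitated with a monoclonal antibody against 5mC or a polyclonal antibody against 5-hydroxymethylcytosine (5hmC) and sequenced, with 1 library per stage and mark and 6 libraries in all. The first stage was fibroblasts at passage 4, grown from mice made from iPS cells that carry inducible Tet1, Sox2, Klf4 and c-Myc. The second was fibroblasts of the same kind at passage 4 after doxycycline for 3 days, in ES cell medium in place of feeder medium. The third was 1 iPS cell line from this system at passages 10 to 15. All 3 stages had the OG2-GFP/Rosa26-M2rtTA background, which supplies a reporter of Oct4 expression and the transactivator that responds to doxycycline. The iPS cells grew on mitomycin-treated mouse embryonic fibroblasts, and the labels describe a replating step to remove these feeders. No library has a replicate, so each comparison is between single libraries and carries no p-value. Intervals on shares of peaks are 95% Wilson intervals and cover counting error only, since peaks of 1 library share their source.

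5mC in mammals lies mostly at CpG sites. It is placed on unmethylated DNA by the de novo methyltransferases Dnmt3a and Dnmt3b and copied at replication by Dnmt1. Tet enzymes, among them the Tet1 used here as a reprogramming factor, oxidise 5mC to 5hmC, which can be diluted by replication or removed by repair. Pluripotent cells are known for active de novo methylation together with abundant 5hmC, and cultured fibroblasts for little 5hmC. A 5hmC peak at a region without a 5mC peak is therefore possible at any stage, and antibody capture over a stretch of DNA does not show whether both marks lie on 1 molecule.

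The 6 lists differed in length. From fibroblasts over day 3 to iPS cells, the 5hmC lists held 42301, 116087 and 174079 peaks, and the 5mC lists held 104011, 165869 and 61171. Read depth is unknown, and a deeper library yields more peaks from the same DNA. The gene table and promoter sequences at hand are on another genome build than the files (mm9), so regions are given by mm9 position, counted from 1, without a gene name or sequence.

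The iPS-only 5mC peaks were short and low in score. Their median width was 788 bp, with 10% below 626 bp and 10% above 1026 bp, and the widest measured 2149 bp. The other iPS 5mC peaks had a median width of 903 bp. Each peak has a score from the authors' caller, which is taken here to be -log10 of a p-value multiplied by 10, although the files do not state it. The median score was 62.1 for iPS-only peaks and 80.4 for the other peaks, and the highest was 315.38 against 3175.89. A score of at least 100 was reached by 915 iPS-only peaks (9.01%) and by 33.0% of the other peaks. Together the iPS-only peaks covered 8.27 Mb, against 51.4 Mb for the others. These values come from the list that chose the members and are a description.

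Earlier 5mC often lay within a few kb of the members. The median distance from an iPS-only peak to the nearest 5mC peak was 4016 bp for the fibroblast list and 2310 bp for the longer day-3 list. Taking the nearer of both, the median was 2076 bp, with quartiles of 752 and 5439 bp. At positions 2 kb from the members' centres, fibroblast 5mC peaks covered 10.2% and day-3 5mC peaks 14.9%. At 50 kb these values were 8.64% and 12.4%. Around iPS 5mC peaks on day-3 but not fibroblast 5mC, the values at 2 kb were 13.1% and 18.5%. Around those on 5mC of all 3 stages they were 19.6% and 25.9%. Earlier 5mC was thus sparser around the members than around either of these classes, which were themselves set by the 5mC lists. On the inner side of the rule, 405 members lay within 100 bp of an earlier 5mC peak, with a median score of 64.26. On its outer side, 280 iPS 5mC peaks were covered by at most 100 bp of an earlier list, with a median score of 65.08. Most of the other iPS 5mC peaks were far from this border, as 97.9% of them were covered over 50% or more of their width by 1 of the earlier lists.

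5hmC was not used to choose the members. In fibroblasts 2388 of the 10151 members carried a 5hmC peak, or 23.5% (22.7 to 24.4), against 17.1% over all iPS 5mC peaks. At day 3 there were 1522, or 15.0% (14.3 to 15.7), against 25.7% over all. In iPS cells there were 4313, or 42.5% (41.5 to 43.5), against 67.2% over all. Thus the iPS-only peaks had more fibroblast 5hmC and less day-3 and iPS 5hmC than the whole list to which they belong.

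**Figure D1:**
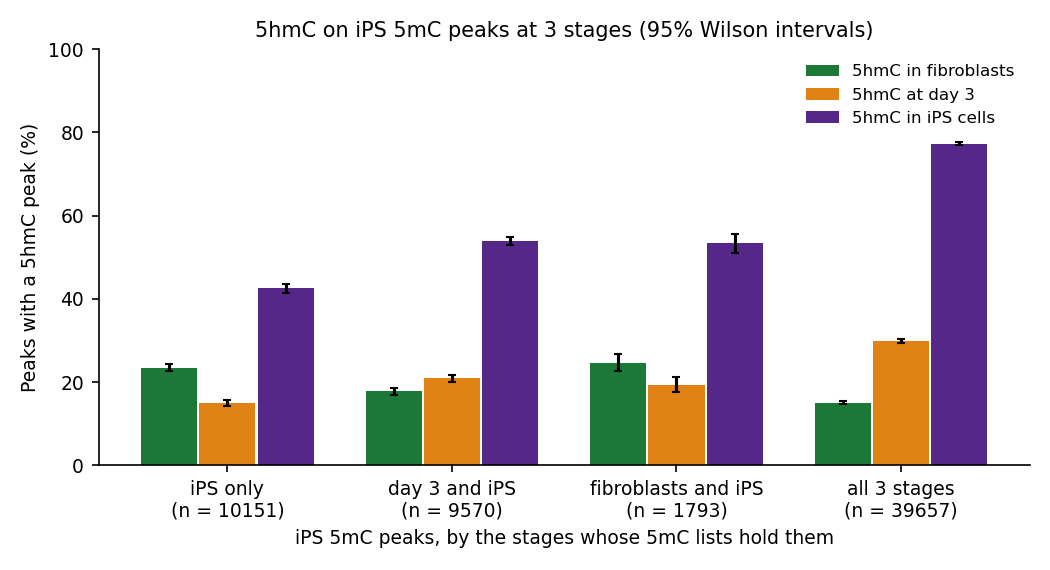
Bars give the percentage of iPS 5mC peaks that overlap a 5hmC peak of fibroblasts (green), day 3 (orange) or iPS cells (purple), for 4 classes of iPS 5mC peaks set by the 5mC lists that hold them, with 95% Wilson intervals. In the iPS-only class the fibroblast bar (23.5%) stands above the day-3 bar (15.0%), and in the class found at all 3 stages the day-3 bar (29.9%) stands above the fibroblast bar (15.0%).

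Among the other iPS 5mC peaks, the fibroblast, day-3 and iPS 5hmC shares were 15.9%, 27.9% and 72.1%. The iPS-only share minus the other share was 7.66 percentage points for fibroblast 5hmC (95% Newcombe interval 6.79 to 8.56), -12.9 for day-3 5hmC (-13.7 to -12.1) and -29.6 for iPS 5hmC (-30.6 to -28.5). The class most like the members in width and score was the 9570 iPS 5mC peaks gained by day 3, which lie on day-3 but not on fibroblast 5mC. Against these the same differences were 5.74 (4.61 to 6.86), -5.96 (-7.03 to -4.89) and -11.4 points (-12.8 to -9.98). The 1793 iPS 5mC peaks on fibroblast but not day-3 5mC had a fibroblast 5hmC share of 24.7%, and the difference of -1.13 points had an interval of -3.33 to 0.985. The 2 classes without a day-3 5mC peak thus had the highest fibroblast 5hmC shares, and these did not differ beyond their interval.

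Within the same members, 1948 had 5hmC in fibroblasts but not at day 3, and 1082 had it at day 3 but not in fibroblasts. Among the other iPS 5mC peaks these counts were 3945 and 10081. The members' day-3 share was the smaller although the day-3 5hmC list was the longer. On each of the 19 autosomes the fibroblast share of the members was above the day-3 share, and on none of them was this so for the other iPS 5mC peaks.

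The order of fibroblast and iPS 5hmC depended on how the 5hmC lists were shortened. With the 42301 best-scoring peaks of each 5hmC list, the members' fibroblast, day-3 and iPS shares were 23.5%, 6.36% and 12.3%, and fibroblasts had the highest share. The other iPS 5mC peaks then had 15.9%, 13.2% and 36.9%. In that setting the fibroblast list is whole, whereas the lowest score kept was 162.80 at day 3 and 187.58 in iPS cells. The members' lower iPS share relative to the other peaks was thus present with full and with equal lists. Their iPS share was above their fibroblast share with full lists and, at 49.6% against 33.6%, with a score of at least 100 required in all 6 lists, and below it with lists of equal length.

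Traced through the stages with the full lists, the commonest state of the members was no 5hmC at all. Of the members 4719, or 46.5% (45.5 to 47.5), had no 5hmC peak at any stage, against 26.7% over all iPS 5mC peaks. No 5hmC was also the commonest state of the peaks gained by day 3 (38.0%) and of those on fibroblast but not day-3 5mC (36.5%). A further 1962 members (19.3%) had 5hmC in iPS cells alone, which was the commonest state of the other peaks as a whole at 41.6%. Next came 1373 members (13.5%) with 5hmC in fibroblasts and iPS cells but not at day 3, a state held by 6.04% of the other peaks as a whole but by 13.2% (11.7 to 14.8) of those on fibroblast and not day-3 5mC. All 3 stages had 5hmC at 395 members (3.89%), against 7.65% of the other peaks. 5hmC in fibroblasts alone was found at 575 members (5.66%), against 2.35% over all iPS 5mC peaks, and at day 3 alone at 499 (4.92%), against 3.28%. For these states the peaks on fibroblast but not day-3 5mC had 5.52% (4.56 to 6.68) and 3.85%. Those gained by day 3 had 2.94% and 4.57%. 5hmC at day 3 and in iPS cells was found at 583 members (5.74%), well below the 15.0% over all. The 45 members with 5hmC in fibroblasts and at day 3 only (0.443%) were near the 0.469% over all. These shares moved with the thresholds: no 5hmC at any stage held for 20.1% of members with a 5mC score of at least 100 and for 66.8% with 5hmC lists of equal length, where iPS cells alone fell to 4.86%.

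**Figure D2:**
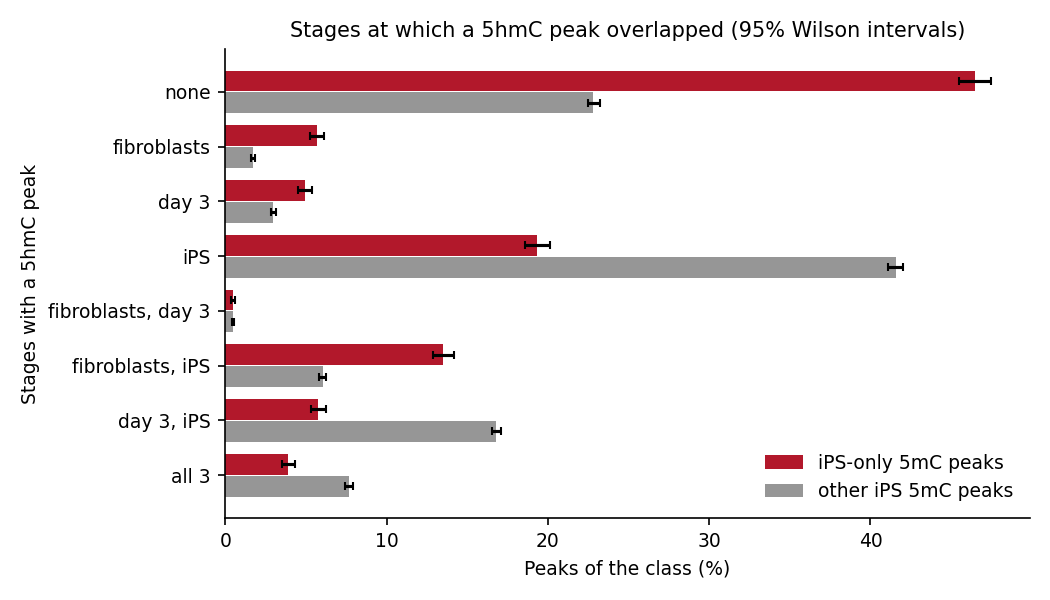
Horizontal bars give the percentage of iPS-only 5mC peaks (red, n = 10151) and other iPS 5mC peaks (grey, n = 51020) by the combination of stages with an overlapping 5hmC peak, with 95% Wilson intervals. The red bar is the longer for no 5hmC (46.5% against 22.8%) and for fibroblasts with iPS cells (13.5% against 6.04%), and the shorter for iPS cells alone (19.3% against 41.6%).

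Members marked in fibroblasts were usually marked again in iPS cells. Of the 2388 members with fibroblast 5hmC, 74.0% (72.2 to 75.8) had 5hmC in iPS cells and 18.4% had it at day 3. Of the 7763 without fibroblast 5hmC, 32.8% (31.7 to 33.8) had it in iPS cells and 13.9% (13.2 to 14.7) at day 3. Among the other iPS 5mC peaks with fibroblast 5hmC, 86.3% had iPS 5hmC and 51.2% had day-3 5hmC. The gap at day 3 was thus wider for the members than for the other peaks as a whole. The class on fibroblast but not day-3 5mC was closer to the members, with 74.9% in iPS cells and 24.2% at day 3. The class gained by day 3 had 79.9% and 37.4%. Read from the iPS side, 2351 of the 4313 members with iPS 5hmC (54.5%, 53.0 to 56.0) had 5hmC at an earlier stage, against 42.3% of the other peaks. Of all 4313, 41.0% had fibroblast and 22.7% day-3 5hmC, some of them both. For the other peaks with iPS 5hmC the values were 19.0% and 33.9%. For those on fibroblast but not day-3 5mC they were 34.6% and 27.8%, with 52.4% (49.2 to 55.5) at either earlier stage.

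Fibroblast 5hmC was most frequent on the best-scoring members. All iPS 5mC peaks were ranked by score into 5 groups of equal number, and classes were compared within each. From the lowest to the highest group, the share of members with fibroblast 5hmC was 15.5%, 19.1%, 26.2%, 37.1% and 65.9%. The other peaks of the same groups had 11.6%, 12.1%, 13.9%, 16.9% and 22.7%. The class on fibroblast but not day-3 5mC, which is part of the other peaks, rose much as the members did, with 15.1%, 18.4%, 22.4%, 29.3% and 61.5%. In the top group 303 of 460 members carried fibroblast 5hmC (61.4 to 70.1).

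Day-3 5hmC showed no such rise on the members. Their shares ran 14.0%, 15.3%, 15.4%, 16.6% and 15.2%, with overlapping intervals in neighbouring groups, and the other peaks as a whole rose from 23.3% to 35.8%. The class on fibroblast but not day-3 5mC ran 17.8%, 18.2%, 20.7%, 18.4% and 24.6%, also with overlapping intervals in neighbouring groups. The iPS 5hmC shares of the members rose from 34.6% to 75.2%, below the other peaks as a whole in each group, which went from 60.1% to 87.0%. In the lowest group the class gained by day 3 (47.1%) and that on fibroblast but not day-3 5mC (48.5%) were also above the members. In the highest group these classes had 70.7% (67.2 to 74.0) and 65.9% (58.7 to 72.5), below the members' 75.2% (71.1 to 78.9). Among the 150 members with a score of at least 150, 112 (74.7%) had fibroblast 5hmC, 25 (16.7%) had day-3 5hmC and 125 (83.3%) had iPS 5hmC. Of the 6742 other iPS 5mC peaks with such scores, 24.6%, 38.9% and 90.9% had these.

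**Figure D3:**
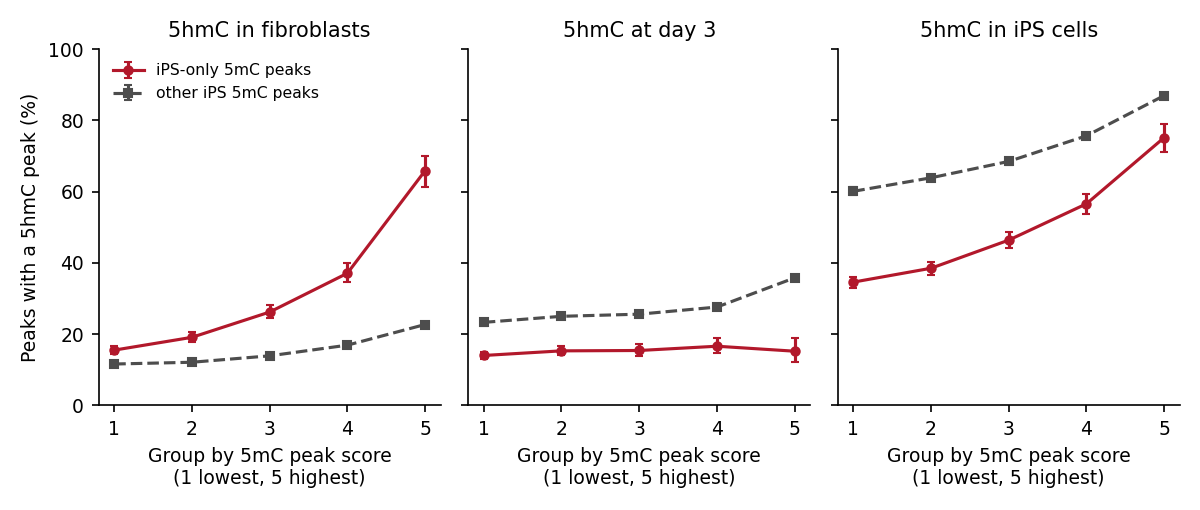
Each panel shows the percentage of iPS 5mC peaks with a 5hmC peak at 1 stage, by group of 5mC peak score from 1 (up to 57.48) to 5 (118.11 to 3175.89), for iPS-only peaks (red circles) and other iPS 5mC peaks (grey squares), with 95% Wilson intervals. The red line is above the grey line in fibroblasts, reaching 65.9% against 22.7%, and below it at day 3 and in iPS cells.

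Width gave the same order of the members and the other peaks as a whole. In 5 groups of equal number by width, the fibroblast share of the members exceeded that of the other peaks in each, with 16.9% against 12.6% in the narrowest and 37.3% against 20.3% in the widest group. When the other peaks were weighted to the members' makeup by score and width, their fibroblast, day-3 and iPS shares were 13.3%, 25% and 65.2%. The iPS difference was then -22.7 points, against -29.6 unweighted.

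The fibroblast 5hmC peaks lay squarely on the members. Where they overlapped, the fibroblast 5hmC peak covered a median of 91.8% of the member, contained its centre in 95.5% of cases and had its own centre a median of 81.8 bp away. The iPS 5hmC peaks covered a median of 89.3%, contained the centre less often than fibroblast peaks did, and were offset by 119 bp. Day-3 5hmC peaks covered 82.1%, contained the centre in 75.6% and were offset by 265 bp. Day-3 overlaps were therefore more often at an edge. This was not particular to the members. On the other iPS 5mC peaks, day-3 5hmC peaks contained the centre in 78.1% and were offset by 274 bp. Fibroblast 5hmC peaks were less centred on the other iPS 5mC peaks as a whole, with a median cover of 82.4% and an offset of 121 bp. On the class gained by day 3 these values were 88.4% and 95.8 bp, nearer to those of the members.

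Coverage around the members' centres showed the same. Fibroblast 5hmC peaks covered 22.5% of the centres, 9.19% of positions 500 bp away, 2.48% at 1 kb and 2.70% at 5 kb. iPS 5hmC peaks covered 38.3% of the centres, 16.7% of positions at 1 kb and 17.6% at 5 kb. Day-3 5hmC peaks covered 11.3%, 8.01% and 8.81%. As a ratio to the surroundings at 5 kb, the centre was thus most distinct for fibroblast 5hmC and least for day-3 5hmC. As a difference, iPS 5hmC stood slightly further above its surroundings than fibroblast 5hmC. At iPS 5mC peaks found at all 3 stages, fibroblast 5hmC covered 12.5% of the centres and 3.27% at 5 kb. There iPS 5hmC covered 72.8% and 24.8%, and day-3 5hmC 23.2% and 13.2%. At peaks gained by day 3 the values were 16.4% and 2.85%, 48.8% and 19.7%, and 16.8% and 10.8%. The order of the ratios was thus the same in these classes and not particular to the members.

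**Figure D4:**
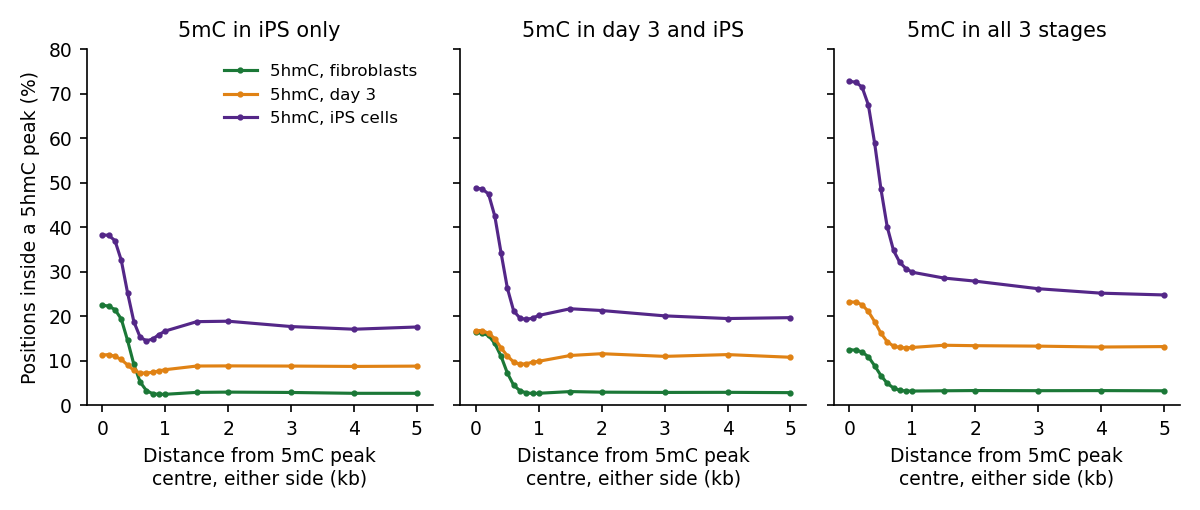
Lines give the percentage of positions inside a 5hmC peak at distances of 0 to 5 kb on either side of the centre of iPS 5mC peaks, for 5hmC of fibroblasts (green), day 3 (orange) and iPS cells (purple), in 3 classes of 5mC peaks. In the iPS-only panel the green line falls from 22.5% at the centre to 2.48% at 1 kb and the orange line from 11.3% to 8.01%.

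Counted from the 5hmC lists, the fibroblast list gave the largest part of its peaks to the members. Of fibroblast 5hmC peaks, 2390 (5.65%, 5.43 to 5.87) lay on an iPS-only 5mC peak, against 1548 (1.33%) of the day-3 and 4408 (2.53%, 2.46 to 2.61) of the iPS 5hmC peaks. Among the fibroblast 5hmC peaks that lay on any iPS 5mC peak, 22.9 per 100 lay on an iPS-only one, against 9.81 at day 3 and 10.8 in iPS cells. This share of the fibroblast 5hmC list rose with 5hmC score, from 2.92% in the lowest to 10.2% in the highest of 5 equal groups. The share on other iPS 5mC peaks alone rose likewise, from 11.5% to 36.0%, and the members per 100 on any iPS 5mC peak were 20.2 and 22.0, so the rise was not particular to the members. In the iPS 5hmC list the share on members went from 2.12% to 2.99%. Its share on other iPS 5mC peaks alone went from 9.51% to 44.1%. The members per 100 on any iPS 5mC peak therefore fell from 18.3 to 6.35 there. Fibroblast 5hmC peaks on members had a median score of 125.61, those on other iPS 5mC peaks 120.90, and those on neither 79.39.

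With distance from earlier 5mC, day-3 and iPS 5hmC became rarer on the members and fibroblast 5hmC did not. Of members within 100 bp of an earlier 5mC peak, 54.1% (49.2 to 58.9) had iPS 5hmC and 21.2% (17.5 to 25.5) had day-3 5hmC. Of the 1161 members 10 to 50 kb away, 32.6% (29.9 to 35.3) and 10.9% (9.19 to 12.8) had these. The fibroblast 5hmC shares of the same groups were 18.8% (15.3 to 22.9) and 24.8% (22.4 to 27.4). Among the 139 members more than 50 kb away, fibroblast 5hmC was found at 46 (33.1%, 25.8 to 41.3), iPS 5hmC at 38 and day-3 5hmC at 7. Median score and width also fell with distance, from 64.26 and 815 bp within 100 bp to 59.92 and 728 bp beyond 50 kb. Their part in these trends was not tested.

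**Figure D5:**
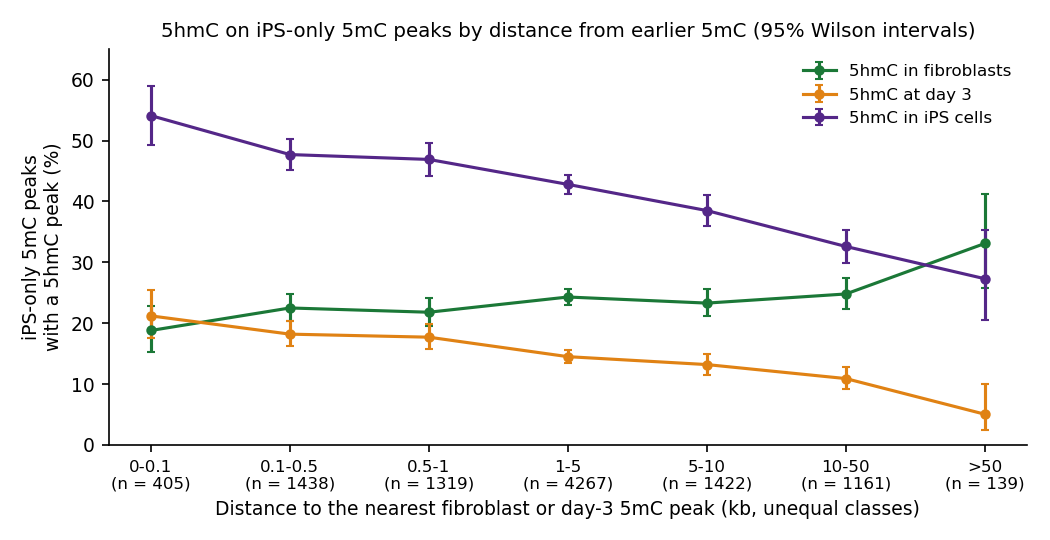
Points give the percentage of iPS-only 5mC peaks with a 5hmC peak of fibroblasts (green), day 3 (orange) or iPS cells (purple), by distance in kb to the nearest fibroblast or day-3 5mC peak, in 7 unequal classes with 95% Wilson intervals. The purple points go from 54.1% down to 27.3% and the orange from 21.2% to 5.04%, while the green points go from 18.8% to 33.1%.

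The members were spread over the genome. They made up between 14.0% (chromosomes 11 and 15) and 19.9% (chromosomes 1 and 13) of the iPS 5mC list on single autosomes, at 3.22 to 5.12 members per Mb. Of the 6906 windows of 100 kb with a member, 4593 held a single one, and 17.5% of the members had another within 10 kb. Single autosomes differed in the share of members with fibroblast 5hmC from 18.5% (chromosome 12) to 29.4% (chromosome 10), and with iPS 5hmC from 36.3% (chromosome 14) to 47.8% (chromosome 19). On each of the 19 autosomes the iPS 5hmC share of the members was below that of the other iPS 5mC peaks.

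Clusters of members were few, and their 5hmC differed. The densest window, on chromosome 2 from 77700001 to 77800000, held 9 members with scores of 58.37 to 164.31, of which none had fibroblast 5hmC, 2 had day-3 5hmC and 1 had iPS 5hmC. The next, on chromosome 2 from 179200001 to 179300000, held 8 members, 4 with fibroblast, none with day-3 and 3 with iPS 5hmC. Directly beside it, the window from 179300001 to 179400000 held 7, with 1, 1 and 4. Over the whole windows, iPS 5hmC peaks covered 9.22 kb of the first and 31.2 and 29.7 kb of the neighbouring pair. Day-3 5hmC peaks went the other way, with 8.48 kb in the first and 1.98 and 1.45 kb in the pair. The other 3 windows with 7 members each were on chromosome 1 from 138700001 to 138800000, on chromosome 2 from 172500001 to 172600000 and on chromosome 14 from 56000001 to 56100000. No day-3 5hmC peak overlapped a member in these 3 windows, and 4, 3 and 2 of their members had iPS 5hmC.

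Single members illustrate the states. The best-scoring member, on chromosome 11 from 20278483 to 20279920, had a 5mC score of 315.38 and lay 4562 bp from the nearest fibroblast and 1484 bp from the nearest day-3 5mC peak. Its fibroblast 5hmC peak, from 20278530 to 20279957, scored 910.36, so that 0.754% of the fibroblast 5hmC list scored higher. The iPS 5hmC peak there, from 20278453 to 20280175, scored 757.52, and the nearest day-3 5hmC peak was 6774 bp away. The region thus carried 5hmC in fibroblasts and iPS cells over nearly the same base pairs and no listed peak of either mark at day 3.

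The same state recurred among the best-scoring members. Of the 10 best, 9 had fibroblast 5hmC, 9 had iPS 5hmC and 2 had day-3 5hmC. The 10 best of the other iPS 5mC peaks, which score at least 3100.00, had 5hmC at every stage in 10 of 10. Among the 100 best of each class, fibroblast 5hmC lay on 79 members and on 87 other peaks, and day-3 5hmC on 12 members and on 87 other peaks. These 100 reached down to a score of 159.98 for the members and 927.78 for the other peaks. Frequent fibroblast 5hmC at the top of each ranking was therefore found in both classes, over unlike score ranges. With a score of at least 150, fibroblast 5hmC lay on 74.7% of the members and 24.6% of the other peaks. On chromosome 8 from 91021550 to 91023394 (5mC score 262.29), 5hmC peaks scored 981.16 in fibroblasts and 953.99 in iPS cells, with the nearest day-3 5hmC peak 26661 bp away. On chromosome 1 from 182825509 to 182826922 (276.81), they scored 387.59 and 760.07, with the nearest day-3 peak 1929 bp away. Further members with this state were on chromosome 5 from 102167988 to 102169237 and from 113174963 to 113176512, and on chromosome 3 from 122105643 to 122107194. The member on chromosome 1 from 20711699 to 20713258 (252.92) had 5hmC in fibroblasts alone, with a score of 147.39. It lay 30050 bp from the nearest fibroblast 5mC, 43650 bp from the nearest day-3 5mC and 28215 bp from the nearest iPS 5hmC peak.

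Both members among the 10 best with 5hmC at all 3 stages had less than 50% of their width covered by day-3 5hmC. On chromosome 17 from 88504261 to 88505599, fibroblast 5hmC covered 96.0% of the member, day-3 5hmC 11% and iPS 5hmC 85.3%. This member was 36 bp from a day-3 5mC peak, close to the border of the rule. On chromosome 11 from 118331931 to 118333591 the day-3 5hmC peak covered 47.6% and scored 55.79, near the lowest score of the list. The third by score with all stages, on chromosome 12 from 31777734 to 31779478, had a day-3 5hmC peak over 20.6% of its width. The widest member, on chromosome 7 from 149652426 to 149654574 (2149 bp), differed in having day-3 5hmC over 71.1%. There the fibroblast, day-3 and iPS 5hmC peaks scored 1760.41, 165.04 and 2056.95. Another of the 5 widest, on chromosome 18 from 68214002 to 68215886, was covered over 16.5%, 53.3% and 62.6% of its width by fibroblast, day-3 and iPS 5hmC.

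Of the 3 best-scoring members with 5hmC in iPS cells alone, the 2 leading ones lay inside a broader iPS 5hmC peak. On chromosome 11 from 33096471 to 33098503 (5mC score 230.98, width 2033 bp), the iPS 5hmC peak ran from 33096120 to 33100388 and scored 1090.31. On chromosome 5 from 67618808 to 67620498 (268.13) it ran from 67618658 to 67621876 and scored 624.23. Both were more than 10 kb from any earlier 5mC peak, at 13325 and 11311 bp. The third, on chromosome 11 from 57361812 to 57363484, was covered over 56.4% by iPS 5hmC, and a day-3 5hmC peak began 42 bp away. The member on chromosome 2 from 70417790 to 70419799, among the 5 widest, was also of this state, with 58.6% covered in iPS cells.

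Members without 5hmC at any stage were lower in score, with a median of 59.62 against 74.67 for members with fibroblast and iPS but not day-3 5hmC. Members with 5hmC at day 3 alone were close to the former, at 60.17. The other iPS 5mC peaks had the same order, with 69.26 and 91.88 for the first 2 states. The best-scoring members without 5hmC were on chromosome 8 from 4483370 to 4484941 (227.99), on chromosome 2 from 77863504 to 77864697 (179.14) and on chromosome 6 from 54672162 to 54674013 (178.32). For the member on chromosome 2 no peak of any other list lay within 20 kb, since the nearest iPS 5hmC peak was 23625 bp and the nearest day-3 5mC peak 24001 bp away. The member on chromosome 6 had a day-3 5hmC peak 876 bp and an iPS 5hmC peak 1005 bp away. The second-widest member, on chromosome 10 from 43600439 to 43602558 (2120 bp), was also free of 5hmC, with the nearest iPS 5hmC peak at 3277 bp. Over all members without iPS 5hmC, the median distance to the nearest iPS 5hmC peak was 2260 bp, and 29.4% had one within 1000 bp. The other iPS 5mC peaks without iPS 5hmC were near these values, with 2199 bp and 31.4%.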

How the data were processed

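The authors deposited 1 peak list per library. Its unit is a score per peak given by the authors' caller, with a lowest value of about 50 in each list. MACS 1.4.1, Bowtie 0.12.7, CASAVA 1.8 and the mm9 build appear in the submitters' processing notes. The sources used here give no control library, caller settings, duplicate handling or read numbers, so depth is unknown. Scores were ranked within a list. In addition, a cutoff of 100 was applied to all 6 lists in an alternative setting, and scores of single regions are printed for several lists. Whether a score means the same in different lists is unknown. Starts were taken as counted from 0 and are printed counted from 1. Overlap meant 1 bp or more. Overlap, distance and class counts were tested on simulated data (12000 simulated peaks, 0 wrong) and gave the same numbers as bedtools 2.31.1 for the iPS 5mC list on 6 lists. Intervals are Wilson (shares), Newcombe (classes) or paired (stages). Tools were pandas 2.3.3, numpy 2.4.6, matplotlib 3.10.9 and scipy 1.17.1 under Python 3.11.15. The members, comparisons and named regions (the 10 best-scoring and 5 widest members, the 3 best-scoring with no 5hmC, iPS 5hmC alone and 5hmC at all stages, and the 5 windows of 100 kb with most members, 6 with ties) were chosen with earlier results of these data known. Gene context, CpG density and sequences were left out because no mm9 annotation or genome was used. Alternatives changed score thresholds, list lengths, overlap rules, chromosomes and, after seeing the data, the lists that set membership and the makeup of the compared peaks.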

Additional observations from a re-analysis of the deposited data

Results flagged for a closer look

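The iPS-only and the other iPS 5mC peaks moved in opposite directions between fibroblasts and day 3. The share with 5hmC at day 3 minus that in fibroblasts was -8.53 percentage points for the iPS-only peaks (95% paired interval -9.58 to -7.48) and 12 points for the other iPS 5mC peaks (11.6 to 12.5). Each value rests on 1 fibroblast and 1 day-3 5hmC library, and the difference between the classes was not tested. The opposite direction does not hold for every class of the other peaks: the 1793 on fibroblast but not day-3 5mC went from 24.7% in fibroblasts to 19.4% at day 3, the same way as the members. With equal numbers of best-scoring 5hmC peaks per list both values were negative, at -17.2 and -2.63 points, so the opposite direction depends on list length and the order of the classes did not change. The members were chosen by the absence of a day-3 5mC peak, and whether the day-3 libraries of both marks miss regions in common was not tested.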

How the results depend on the processing

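In the order of number of members, shares with fibroblast, day-3 and iPS 5hmC, iPS difference from the other peaks, and day-3 minus fibroblast share (points), a score of at least 100 in every list gave 2374 members, 33.6%, 12.3%, 49.6%, -23.7 and -21.3. A score of at least 100 for iPS 5mC peaks alone gave 915, 54.9%, 17.2%, 69.0%, -15.2 and -37.7. With 5mC lists shortened to their 61171 top scores, values were 24546, 19.8%, 17.5%, 48.6%, -31.0 and -2.33. With 5hmC lists shortened to their 42301 top scores, the day-3 share was 6.36%, the iPS share 12.3% and the differences -24.6 and -17.2. In that setting alone a sign turned, as day 3 minus fibroblasts was -2.63 points for the other iPS 5mC peaks. Requiring 50% of the 5mC peak covered, or its centre inside a 5hmC peak, gave 22.4% and 22.5% in fibroblasts, 11.4% and 11.3% at day 3, 38.3% in iPS cells by both, and -11.1 points by both. Leaving out members within 1000 bp of earlier 5mC gave 13.4% at day 3, 39.9% in iPS cells, -30.7 and -10.9. Of the alternatives added after seeing the data, membership from the fibroblast list alone gave 19721, 20.7%, 17.9%, 48.0%, -28.3 and -2.85, and from the day-3 list alone 44.1% in iPS cells. Weighting by score and width gave -22.7. Autosomes alone kept each value within its interval. Over these settings the members' share with no 5hmC at any stage ran from 20.1% to 66.8%, and that with 5hmC in iPS cells alone from 4.86% to 25.7%. The cause of these shifts was not tested, beyond the smaller or larger sets that the settings themselves make. No paired analysis was possible because each stage and mark has 1 library. Unknown depth limits every share, and absence from a list is not absence of a mark.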

Other observations

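Sex chromosomes and mitochondrial DNA added few members. Chromosome X held 17 of its 108 iPS 5mC peaks as iPS-only (15.7%, 95% Wilson interval 10.1 to 23.8), of which 47.1% had fibroblast 5hmC, 5.88% day-3 5hmC and 23.5% iPS 5hmC. Chromosome Y held 1 of 50, and the 3 mitochondrial peaks of the iPS 5mC list were all present earlier.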
